A study of Mus musculus with 6 samples.

Results

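The 338 regions described here are places in the macrophage genome where the nuclear receptor PPARγ was found together with PU.1, without C/EBPβ, and where the final adipocyte list had no PPARγ region. They were chosen by overlap of at least 1 bp among the authors' final macrophage PPARγ list of 1961 regions. Each overlapped a macrophage PU.1 region, none overlapped a macrophage C/EBPβ region, and none overlapped a region of the final adipocyte PPARγ list. They make up 17.2% of the whole list and 19.3% of its 1747 macrophage-only regions. The other macrophage-only regions fall into 799 with both factors, 216 with C/EBPβ alone and 394 with neither, and these 3 classes serve as the comparison. Because overlap with PU.1, C/EBPβ and adipocyte PPARγ chose the members, those overlaps are described here and not tested.

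PPARγ is a ligand-activated receptor that binds DNA as a heterodimer with RXR. It directs fat cell differentiation and, in macrophages, takes part in lipid handling and in alternative activation. PU.1 is an ETS-family factor of the myeloid and B cell lineages that recognises sites with a GGAA core and opens chromatin at macrophage enhancers. C/EBPβ is a leucine-zipper factor used by macrophages and by differentiating adipocytes alike. Acetylation of lysine 9 of histone H3 (H3K9Ace) marks active promoters and enhancers.

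The data are ChIP-seq region lists (chromatin immunoprecipitation followed by sequencing). The macrophages, with libraries for PPARγ, PU.1, C/EBPβ and H3K9Ace, came from the peritoneal cavity of male C57BL/6 mice given 1 ml of 3% thioglycollate 3 days earlier, an irritant that draws inflammatory cells into the cavity, and were kept for 24 h of adherence. Cells of at least 4 animals were pooled for each run, and the PPARγ data joined 2 runs. The adipocytes, with libraries for PPARγ and H3K9Ace, were differentiated 3T3-L1 cells, an established mouse preadipocyte line of fibroblast origin, so the adipocyte values describe 1 cell line. No ligand treatment and no animal age are given in the labels. Each of the 6 groups holds 1 library and nothing is replicated, so every test below runs over regions, treats them as independent and compares lists, not cell populations. The identity of the cells could not be checked against marker genes, since the lists carry positions alone. Libraries are named here by their titles and antibody fields, since the free-text description of all 6 says PPARγ. None of the lists gives a read total, so the depth is unknown. The PU.1 list holds 46356 regions with a median width of 239 bp, the C/EBPβ list 24421, and the H3K9Ace lists 37263 regions over 53.1 Mb in macrophages and 51257 over 100.1 Mb in adipocytes.

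PPARγ and PU.1 lay nearly on top of each other at the members. The centre of the PPARγ region was a median of 48 bp from the centre of its PU.1 region, with quartiles of 22 and 97 bp and a largest distance of 476.5 bp. The centres were within 50 bp at 176 members (52.1%), within 100 bp at 259 (76.6%) and within 200 bp at 315 (93.2%). PU.1 lay on the side of higher coordinates at 164 members and of lower coordinates at 174, so neither side of the genome strand prevailed. At the 799 regions with both factors the PU.1 centre was a median of 61.5 bp away and within 50 bp at 43.8%. Overlap was required in both classes, and neither its part in these distances nor the difference between the classes was tested.

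**Figure D1:**
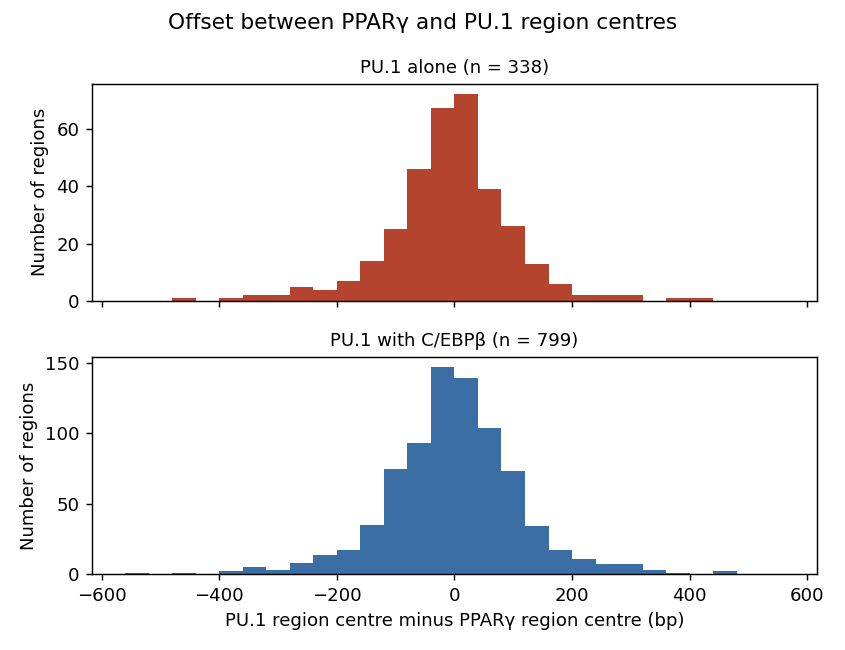
Histograms of the PU.1 region centre minus the PPARγ region centre in bp (x axis), in bins of 40 bp, with the number of regions on the y axis, for the 338 regions with PU.1 alone (top) and the 799 with PU.1 and C/EBPβ (bottom). Both distributions are centred near 0, and 315 of the 338 upper regions lie within 200 bp.

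The overlap itself was deep in most cases. It covered a median of 79.7% of the PPARγ region, with quartiles of 60.4% and 96.9%. A whole PU.1 region lay inside the PPARγ region at 77 members, and 74 members lay wholly inside a PU.1 region. At 31 members the PPARγ centre was outside any PU.1 region, and 6 members overlapped more than 1 PU.1 region. The PU.1 regions at members were wider than PU.1 regions in general, with medians of 309 bp and 239 bp, and narrower than those at regions with both factors (379 bp). Wider regions are more likely to meet another list, and the part of the rule in these widths was not tested.

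The members just inside the rule show how sharp its edge is. The smallest PU.1 overlaps were 2 bp on chromosome 7 at 100414181 to 100414359 (mm8), 4 bp on chromosome 8 at 71941128 to 71941314, and 14 bp on chromosome 1 at 183069352 to 183069792. At these 3 members the PU.1 centre was 343, 398.5 and 388 bp away. The smallest gaps to C/EBPβ were 5 bp on chromosome 16 at 10914093 to 10914429, 10 bp at the same chromosome 1 region, and 18 bp on chromosome 11 at 83464298 to 83464511. Just outside, 3 regions with PU.1 count as having both factors through slight contact with C/EBPβ. The overlap was 1 bp on chromosome 2 (50911664 to 50912177), 2 bp on chromosome 3 (28203599 to 28203771) and 2 bp on chromosome 6 (117782526 to 117782727). The PPARγ list has a lower bound too: its lowest fold is 5, 22 members lie under 5.1, and the next value below in the longer macrophage list is 4.99.

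C/EBPβ was absent from the members but often not far away. The gap to the nearest C/EBPβ region had a median of 4791 bp, with quartiles of 1589 and 14825 bp. A C/EBPβ region lay within 1 kb of 59 members (17.5%) and within 5 kb of 176 (52.1%). For the regions with neither factor these shares were 22.8% and 48.0%, and their median gap was 5527 bp. At 9 members the PU.1 region, which can reach past the PPARγ region, itself overlapped C/EBPβ. PU.1 was also present around the members beyond the overlapping region: 296 of 338 (87.6%) had a further PU.1 region within 10 kb, with a median number of 2 and at most 9. That share was 89.6% for regions with both factors, with a median number of 3. It was 81.5% with C/EBPβ alone and 68.0% with neither, where no PU.1 region overlaps and any within 10 kb counts.

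In the final macrophage list most members, like most regions of the other classes, had no other PPARγ region within 10 kb. Another region of the final macrophage list lay within 10 kb of 55 members (16.3%, 95% Wilson interval 12.7 to 20.6), against 29.4% (26.4 to 32.7) of regions with both factors, 21.3% with C/EBPβ alone and 19.8% with neither. Only 15 members had another member within 10 kb, and 41 had one within 100 kb. With the longer macrophage list, which adds weaker regions, 63.0% of the members had a further PPARγ region within 10 kb, against 80.1% of regions with both factors. No test was made of these shares, since they come from the list the rule was applied to.

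The members were spread over all chromosomes but Y. Chromosome 1 held 29, 8.58% of them against 8.13% of all macrophage-only regions. Chromosome 2 held 28 (8.28% against 8.64%) and chromosome 11 held 25 (7.40% against 7.44%). Higher shares were seen on chromosome 17, with 22 members (6.51% against 4.81%), and chromosome 12, with 18 (5.33% against 3.78%). Lower ones were seen on chromosome 19, with 4 (1.18% against 3.32%), and chromosome 3, with 11 (3.25% against 4.64%). Chromosome X held 3 (0.888% against 1.32%). None overlapped a masked interval. These counts are small and are given as a description.

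PPARγ at the members had about the fold and height of a typical region of the list. The authors' fold, which the file gives relative to a control it does not name, had a median of 6.18 at members, with quartiles of 5.53 and 7.58 and a highest value of 17.9. Over all 1961 regions the median was 6.19. Regions with both factors had a median fold of 6.30 and those with C/EBPβ alone 6.28, while regions with neither had 5.75. The authors' peak height, in whole units with no scaling stated, had a median of 13 at members, 14 with both factors, 13 with C/EBPβ alone and 10 with neither. Median widths were 316, 359, 302 and 217 bp in the same order. The highest folds of the list lay in other classes, at up to 21.9 with both factors and 23.3 with C/EBPβ alone. Going up through the quartiles of fold, members made up 15.7%, 19.2%, 18.0% and 16.1% of the list, so no steady trend with fold was seen.

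Macrophage H3K9Ace was present at about as many members as not. It overlapped 168 of 338 (49.7%, 95% Wilson interval 44.4 to 55.0), where 58.3% of the whole macrophage PPARγ list and 40.7% of the whole PU.1 list carried it. Adipocyte H3K9Ace overlapped 93 members (27.5%, 23.03 to 32.5), where 35.5% of the PPARγ list and 27.9% of the PU.1 list did. By state, 95 members (28.1%) were acetylated in macrophages alone, 73 (21.6%) in both cell types, 20 (5.92%) in adipocytes alone and 150 (44.4%) in neither. The share was 22.2 percentage points higher in macrophages, with 95 of the 115 members marked in 1 cell type alone marked in macrophages (exact McNemar test, 2-sided, p = 7.05e-13). Over the whole macrophage PPARγ list the same difference was 22.8 points. That list also holds the members and the regions shared with adipocytes, of which 72.0% carried macrophage and 82.7% adipocyte H3K9Ace. In the other macrophage-only classes the macrophage and adipocyte shares were 69.5% and 31.5% with both factors. They were 56.5% and 33.3% with C/EBPβ alone, and 36.5% and 25.9% with neither. The members were chosen for PPARγ in macrophages and its absence from the final adipocyte list, so their difference is not independent of the rule. The McNemar test therefore cannot tell a lean towards macrophages apart from that choice. It also sets 1 library per cell type against the other, with lists of unlike coverage (53.1 and 100.1 Mb). Among the 214 regions shared with adipocytes, which the rule left out, 14 were marked in macrophages alone and 37 in adipocytes alone. The part of the rule in the difference was not tested.

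Members carried macrophage H3K9Ace less often than regions that also had C/EBPβ. The share was 49.7% against 69.5% (66.2 to 72.6), an odds ratio of 0.434 (95% interval 0.332 to 0.569, adjusted p = 4e-09 by a 2-sided Fisher's exact test over 9 class tests). Members are narrower and have lower peaks than regions with both factors. Stratified by quartile of peak height, the ratio was 0.435 (0.334 to 0.565), and stratified by quartile of region width it was 0.476 (0.365 to 0.621). The gap was seen in each quartile of the list by fold: going up in fold, members were acetylated in 41.6%, 57.4%, 46.6% and 51.9%, and regions with both factors in 72.4%, 71.3%, 64.9% and 69.7%.

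**Figure D2:**
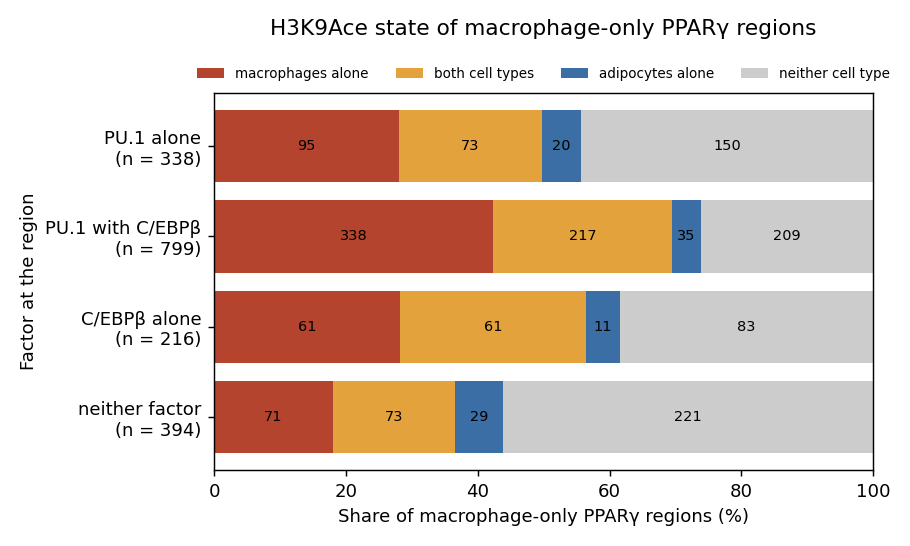
Stacked bars give the share of macrophage-only PPARγ regions (x axis, percent) acetylated at H3K9 in macrophages alone, in both cell types, in adipocytes alone or in neither, for each factor class (y axis), with the number of regions printed in each segment. The class with PU.1 alone has 150 of 338 regions without the mark in either cell type, and the class with both factors 209 of 799.

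The contrast with the remaining classes was smaller. Regions with C/EBPβ alone were acetylated in macrophages in 56.5% of cases, and the odds ratio of members against them was 0.761 (95% interval 0.532 to 1.09, adjusted p = 0.231 by a Fisher's exact test), so a difference was not resolved and the interval reaches from a clear deficit to near equality. When regions within 1 kb of a C/EBPβ region were also kept out of the members, the ratio became 0.644 (95% interval 0.443 to 0.935, adjusted p = 0.0414 by a Fisher's exact test). Regions with neither factor were acetylated less often, in 36.5% (31.9 to 41.4), with an odds ratio of 1.72 for members (95% interval 1.26 to 2.33, adjusted p = 0.00188 by a Fisher's exact test). Those regions are much narrower, and within quartiles of width the ratio was 1.36 (0.988 to 1.86, Mantel-Haenszel). In the upper 50% of the list by fold it was 1.56 (95% interval 0.945 to 2.58, adjusted p = 0.220 by a Fisher's exact test).

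For adipocyte H3K9Ace no difference between the members and another macrophage-only class was resolved. The shares were 27.5% at members, 31.5% with both factors, 33.3% with C/EBPβ alone and 25.9% with neither. The odds ratios of members against these classes were 0.824 (0.614 to 1.10), 0.759 (0.516 to 1.12) and 1.09 (0.772 to 1.53), with adjusted p from 0.231 to 0.759 by Fisher's exact test. All 338 members, but only 380 of the 394 regions with neither factor, lay on a chromosome that holds any adipocyte H3K9Ace region. Without chromosomes X and Y the last ratio was 0.987. Of regions marked in 1 cell type alone, 82.6% were macrophage-marked among members, 90.6% with both factors, 84.7% with C/EBPβ alone and 71.0% with neither. The odds ratio of members against regions with both factors was 0.492 (95% interval 0.263 to 0.945, adjusted p = 0.0811 by a Fisher's exact test), so the lean towards macrophages could not be said to differ. It did pass when the mark was counted within 1000 bp (0.315, adjusted p = 0.00471, Fisher's exact test) and when C/EBPβ was kept 1000 bp away (0.388, adjusted p = 0.0110).

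PU.1 sites with PPARγ were then compared with PU.1 sites that lack it, all without C/EBPβ, in a test chosen after seeing the data. Counting PU.1 regions, 163 of the 334 at members were acetylated in macrophages (48.8%, 43.5 to 54.1), against 11228 of 32764 PU.1 regions without PPARγ in the final list (34.3%, 33.8 to 34.8). The odds ratio was 1.83 (95% interval 1.46 to 2.28, adjusted p = 2.37e-07 by a Fisher's exact test over 8 added tests). The median PU.1 width was 304.5 bp with PPARγ and 220 bp without it, and within quartiles of that width the ratio shrank to 1.32 (1.06 to 1.64, Mantel-Haenszel). Adipocyte H3K9Ace lay at 27.2% and 26.5% of the same PU.1 regions (odds ratio 1.04, 95% interval 0.806 to 1.33, adjusted p = 0.828 by Fisher's exact test). PU.1 regions whose PPARγ region appears in the longer macrophage list alone were acetylated in macrophages in 55.2% of cases (982 of 1778), against 48.8% at members, a difference that was not tested.

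Macrophage acetylation at the members fell off with the distance to C/EBPβ. The share was 69.5% (41 of 59, 56.9 to 79.7) with C/EBPβ under 1 kb away, 52.1% (61 of 117) from 1 to 5 kb, 50.5% (49 of 97) from 5 to 20 kb and 26.2% (17 of 65, 17.0 to 38.0) beyond 20 kb. Split at 5 kb, 58.0% of 176 nearer members and 40.7% of 162 further ones were acetylated, an odds ratio of 2.005 (95% interval 1.27 to 3.17, adjusted p = 0.00439 by a Fisher's exact test, chosen after seeing the data). It was 1.91 within quartiles of width. Without the members under 1 kb the ratio was 1.58 and no longer passed (Fisher's exact test, adjusted p = 0.136), and in the upper 50% by fold it was 1.87 (adjusted p = 0.0932). The regions with neither factor also ran from 63.3% to 21.7% over the same steps, so the slope is not a trait of members alone. In adipocytes the members' shares ran from 35.6% to 21.5%, and the split at 5 kb gave an odds ratio of 1.68 (95% interval 1.003 to 2.82, adjusted p = 0.0623 by a Fisher's exact test). That ratio passed at 1.86 with the PPARγ centre required inside factor regions (adjusted p = 0.0241, Fisher's exact test). It also passed at 2.38 without members of the combined adipocyte list and at 2.26 with H3K9Ace counted within 1000 bp (adjusted p = 0.0107 and 0.00113, Fisher's exact test). It did not pass at 1.56 with C/EBPβ kept 1000 bp away or at 1.55 with the PPARγ centre inside the mark (adjusted p = 0.191 and 0.1605, Fisher's exact test). Nor did it pass at 2.33 in the upper 50% by fold or at 1.64 without chromosomes X and Y (adjusted p = 0.0555 and 0.0768, Fisher's exact test).

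**Figure D3:**
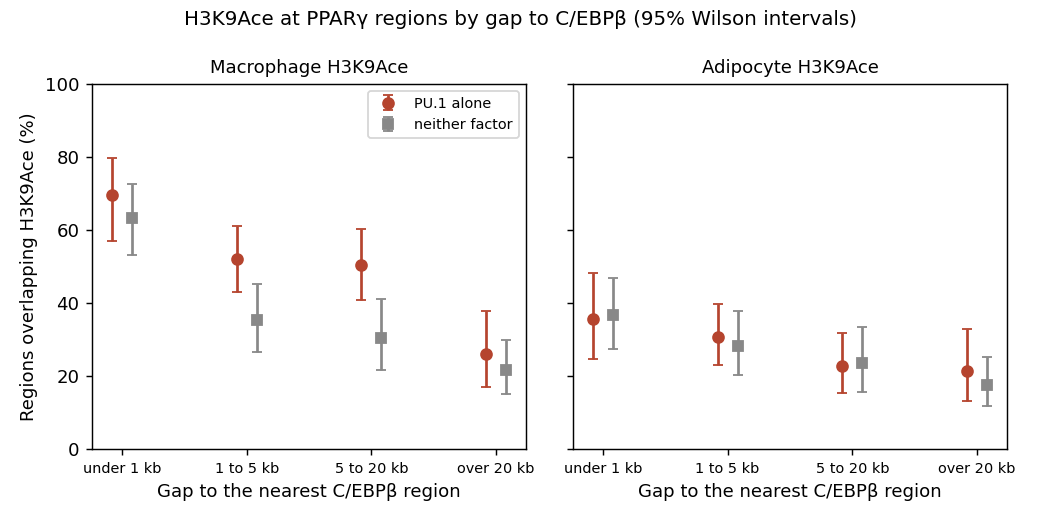
Share of PPARγ regions overlapping H3K9Ace (y axis, percent, with 95% Wilson intervals) by the gap to the nearest C/EBPβ region (x axis), in macrophages (left) and adipocytes (right), for regions with PU.1 alone and with neither factor. For PU.1 alone the macrophage share is 69.5% under 1 kb and 26.2% beyond 20 kb.

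No relation between PPARγ fold and acetylation of the members was resolved. At or above their median fold 48.8% were acetylated in macrophages, and below it 50.6% (odds ratio 0.932, 95% interval 0.595 to 1.46, adjusted p = 0.828 by Fisher's exact test). The median fold was 6.12 for members acetylated in macrophages alone, 6.28 in both cell types, 6.13 in neither and 6.76 for the 20 marked in adipocytes alone. That last group is small, and its quartiles of 5.99 and 9.78 overlap those of the others. Its gap to C/EBPβ had a median of 8323 bp with quartiles of 1659 and 21969 bp, a spread that overlaps the 2682 to 22807 bp of the members without the mark in either cell type.

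**Figure D4:**
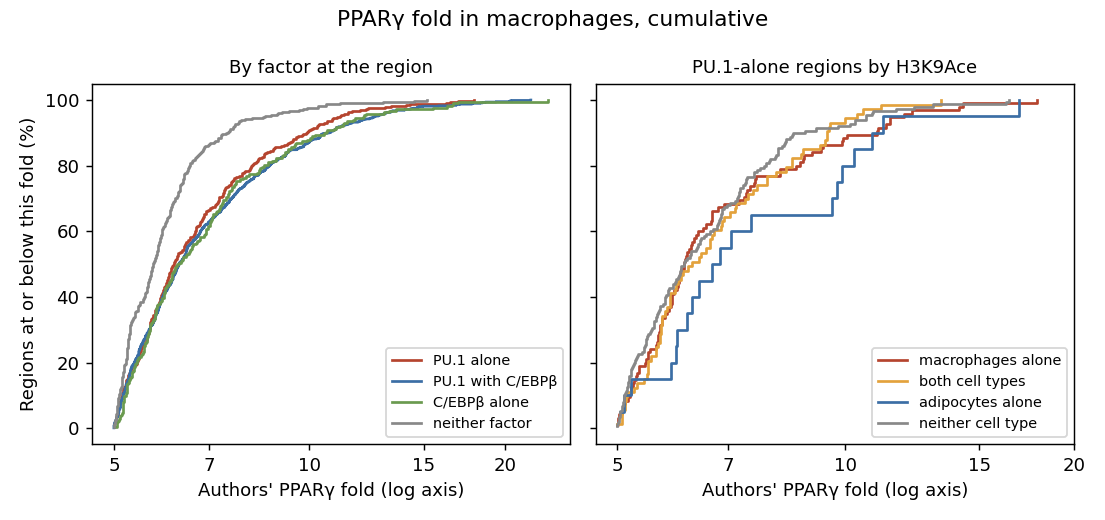
Cumulative share of regions (y axis, percent) at or below a given authors' PPARγ fold (x axis, log scale), by factor class (left) and for the PU.1-alone regions by H3K9Ace state (right). The curve for neither factor rises first (median 5.75), the other classes nearly coincide (medians 6.18 to 6.30), and the 20 regions marked in adipocytes alone have the highest median on the right, 6.76.

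The acetylated members lay inside moderately broad acetylated regions. In macrophages these had a median width of 1725 bp, against 1050 bp over the whole list, and the PPARγ centre was a median of 406.5 bp from the nearest edge, about 50.3% of the way from edge to centre. Regions with both factors had nearly the same placing, 461 bp and 54.8% of the way. The 168 members fell into 166 separate acetylated regions, and 34 of them reached past an edge. Where the mark was in macrophages alone its region was a median of 1350 bp wide, and where both cell types had it 2250 bp in macrophages and 3500 bp in adipocytes. Wider regions of the other list are met more easily, and the part of that in the difference was not tested.

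The 170 members without macrophage H3K9Ace were not all far from it. The gap to the nearest acetylated region had a median of 4268 bp. It was at most 500 bp at 22 members (12.9%), at most 1000 bp at 39 (22.9%) and at most 10000 bp at 113 (66.5%). For unmarked regions with both factors the median gap was 2313 bp and the share within 500 bp 24.6%. The other classes were nearer to the members, with 4445.5 bp and 13.8% for C/EBPβ alone and 5723.5 bp and 15.6% for neither. At 6 unmarked members (3.53%) acetylated regions lay within 1000 bp on both sides. This share was 3.69% with both factors, 3.19% with C/EBPβ alone and 4% with neither.

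Some members overlapped a longer adipocyte PPARγ list. Its regions had a median width of 899 bp and covered 10.96 Mb, against 260 bp and 0.752 Mb for the final list. Wider regions are met more easily, and the part of that in the overlap was not tested. The longer adipocyte list, described as combining 3 datasets, overlapped 52 members (15.4%, 11.9 to 19.6), against 21.2% of regions with both factors, 30.1% with C/EBPβ alone and 13.5% with neither. The gap to the final adipocyte list, which the rule kept from overlapping, had a median of 177900 bp and a lowest value of 574 bp, and 31 members (9.17%) had one of its regions within 10 kb. The median gaps of the other classes were 179831 bp with both factors, 184421 bp with C/EBPβ alone and 236228 bp with neither. The 52 members had a median fold of 6.645, against 6.12 for the other 286. Their median width was 368.5 bp, against 316 bp over all members. They carried adipocyte H3K9Ace in 65.4% of cases (34 of 52), and the other 286 in 20.6%. The odds ratio was 7.27 (95% interval 3.67 to 14.6, adjusted p = 3.44e-09 by a Fisher's exact test, chosen after seeing the data). Within quartiles of region width it was 7.29 (3.82 to 13.9, Mantel-Haenszel). Macrophage H3K9Ace was present at 34 of the 52 as well and at 46.9% of the others (odds ratio 2.14, 95% interval 1.11 to 4.22, adjusted p = 0.0317 by Fisher's exact test). With C/EBPβ kept 1000 bp away the macrophage ratio was 2.24 but no longer passed (adjusted p = 0.0759 by Fisher's exact test). In the upper 50% by fold it was 1.40 (adjusted p = 0.645, Fisher's exact test) while the adipocyte ratio was 5.65. Of the 52, 27 were acetylated in both cell types, 7 in adipocytes alone, 7 in macrophages alone and 11 in neither.

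The 8 members with the highest fold show the range of these states. The strongest, on chromosome 9 at 108975527 to 108975913, had a fold of 17.9 and a height of 33. It was acetylated in macrophages alone, with C/EBPβ 35.4 kb away and PU.1 centred 46 bp from PPARγ. The region on chromosome 8 at 74497161 to 74497595 (fold 16.9) had the greatest height of all members, 47. Its H3K9Ace was in adipocytes alone, although a macrophage acetylated region began 205 bp away, and it overlapped the combined adipocyte PPARγ list.

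Unacetylated members were among the strongest. The region on chromosome 6 at 65523803 to 65524077 (fold 16.4) had the mark in neither cell type, with the nearest macrophage region 1303 bp away. The region on chromosome 2 at 68786197 to 68786612 (fold 16.25, height 44) lay wholly within a PU.1 region and was 12847 bp from macrophage H3K9Ace. The region on chromosome 12 at 17701973 to 17702235 (fold 13.05) held a whole PU.1 region and was 13315 bp from the mark in both cell types.

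Of the remaining 3, the regions on chromosome 1 at 89644813 to 89645100 (fold 14.3) and chromosome 3 at 122282788 to 122283160 (fold 14.1) were acetylated in macrophages alone. The chromosome 3 region was 490 bp from an adipocyte acetylated region and overlapped the combined adipocyte PPARγ list. On chromosome 1 the PPARγ and PU.1 centres differed by 1 bp. The region on chromosome 13 at 45277628 to 45278051 (fold 13.35) was acetylated in both cell types and overlapped the combined adipocyte PPARγ list. Counted over the 8, macrophage H3K9Ace was present at 4, adipocyte H3K9Ace at 2 and neither at 3. Over all 338 members the shares were 49.7%, 27.5% and 44.4%. The 8 are given as examples, and their difference from the rest was not tested.

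Further down, the strongest members of the smaller states were these. Acetylation in both cell types was next found on chromosome 4 at 144175391 to 144175868 (fold 11.1), where C/EBPβ was only 145 bp away, and on chromosome 7 at 15177881 to 15178385 (fold 10.5), where it was 921 bp away. Acetylation in adipocytes alone was next found on chromosome 12 at 3781427 to 3781834 (fold 11.2) and chromosome 15 at 76140559 to 76141013 (fold 10.8). The chromosome 12 region overlapped the combined adipocyte PPARγ list and was 227 bp from a macrophage acetylated region, while the chromosome 15 region was 2085 bp from that list and 12537 bp from macrophage acetylation.

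The 15 regions that had PU.1 without C/EBPβ but were shared with adipocytes are the nearest counterpart. Macrophage H3K9Ace overlapped 13 of the 15 (86.7%, 62.1 to 96.3), and adipocyte H3K9Ace also overlapped 13. With so few regions the intervals are wide, and their difference from the members was not tested.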

How the data were processed

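Per the labels' protocols, the authors aligned 36 bp reads to mm8 by ELAND with at most 2 mismatches, and only uniquely best-matching reads were kept. The longer macrophage PPARγ list is labelled as GLITR output. How peaks were otherwise called is not given in the sources used here. Per the file headers, the authors' final macrophage PPARγ list gives a fold (a ratio), a peak height (a signal) and a false discovery rate read as a percent. The other lists were used for positions, which are printed as deposited. Intervals were read as half-open, and repeated rows were counted once. Shares carry 95% Wilson intervals for counting error only. Class tests were 2-sided Fisher's exact tests with exact conditional intervals, Benjamini-Hochberg adjusted over 9 tests, and over 8 for tests added after seeing the data. Some alternative runs held fewer added tests, so their adjusted p values are not fully alike with those of the main run. Strata used Mantel-Haenszel odds ratios (statsmodels 0.14.6, SciPy 1.17.1). Scripts were tested on simulated lists. The members, classes and tests were chosen with earlier results of these data known. Named regions are the 8 members of highest fold, the top 3 of each acetylation state and the 3 nearest each edge of the rule. No mm8 genome or gene annotation was used here, so sequences and genes are not analysed.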

Additional observations from a re-analysis of the deposited data

How the results depend on the processing

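The deficit of macrophage H3K9Ace against regions with both factors kept direction and significance in every alternative run on it. The lean towards macrophages kept its direction in every alternative run. Those runs all kept the requirement of macrophage PPARγ without adipocyte PPARγ, so they cannot tell the lean apart from the rule. With the upper 50% by fold, the members numbered 168 with median fold 7.59 and height 17, and the ratio of macrophage H3K9Ace against regions with neither factor was 1.56. It was 1.36 within width quartiles. With the longer macrophage list there were 2176 members, with median fold 4.22, height 7, width 250 bp and adipocyte H3K9Ace at 33.7%. Counting H3K9Ace within 1000 bp gave 61.2% in macrophages and 34.0% in adipocytes, and balance ratios of 0.315 against both factors and 1.20 against C/EBPβ alone. With the PPARγ centre inside the mark the latter was 1.04.

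Keeping C/EBPβ 1000 bp away gave a balance ratio of 0.388 against both factors and a macrophage ratio of 0.644 against C/EBPβ alone. The macrophage ratios were then 1.58 for C/EBPβ within 5 kb and 2.24 for the combined adipocyte list, and neither passed. In the upper 50% by fold these were 1.87 and 1.40. Avoiding the combined adipocyte list gave adipocyte H3K9Ace at 20.6% and adipocyte ratios of 1.01 against both factors and 0.988 against neither. The latter was 0.987 without chromosomes X and Y, 0.983 with centres inside the mark, 0.979 within height quartiles and 0.886 within width quartiles. These ratios near 1 never passed the test. For PU.1 regions with against without PPARγ the adipocyte ratio was 0.985 with centres and 0.884 within width quartiles. The adipocyte ratio for C/EBPβ within 5 kb passed at 1.86 with centres inside factor regions. It also passed at 2.38 without the combined list and 2.26 with H3K9Ace within 1000 bp. It did not pass at 1.56 with C/EBPβ kept 1000 bp away or 1.55 with centres inside the mark. Nor did it pass at 2.33 in the upper 50% by fold or 1.64 without chromosomes X and Y. The macrophage ratio by fold was 1.06 without the combined list, 1.27 in the upper 50% and 1.05 with centres. The cause of these changes was not tested. No paired analysis was possible because each group holds 1 library. The unknown depth limits every statement that a mark or factor is missing.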
